A study of Mus musculus with 4 samples.

Results

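Mature oligodendrocytes wrap the axons of the brain in myelin, and the RNAs of 9 of their genes, Mbp, Mobp, Cldn11, Mal, Cnp, Mag, Mog, Opalin and Ermn, were followed in the hippocampus of control and PND mice. The genes were taken by symbol, and all 9 were found among the 29300 genes counted. PND stands for perioperative neurocognitive disorder, modelled here by surgical trauma. Male C57BL/6 mice aged 7 to 8 months were used. The control (sham) mice received isoflurane anesthesia and tramadol analgesia only, and the PND mice received the same followed by an open fracture of the tibia fixed with a nail. On day 1 post-surgery the hippocampus was taken from 2 control and 2 PND mice, and its poly(A) RNA was sequenced. Each library was made from a different mouse, so the comparison rests on 2 animals per group, and it has no group without anesthesia.

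Myelin is laid down as a spiral of oligodendrocyte membrane. In compact myelin, the cytoplasmic faces of the membrane are held together by basic proteins, while non-compact regions keep cytoplasm and lie next to the axon and at the paranodes. Transcription factors of the SOX family and MYRF, the myelin regulatory factor, switch on myelin genes as oligodendrocytes mature, and the hippocampus holds myelin mainly in its fibre tracts and along the axons of its layers. The 9 genes cover these compartments. Mbp, Mobp, Cldn11 and Mal encode proteins of compact myelin, Cnp and Mag belong to non-compact myelin, Mog lies on the outermost surface, and Opalin and Ermn mark late oligodendrocytes.

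RefSeq promoters on GRCm38.p6, spanning 250 bases before to 50 bases after each annotated start, were matched for 8 of the 9 genes, in 10 windows. Those of Ermn, Mag, Mobp and Opalin are shown because Ermn, Mag and Mobp had the highest, the lowest and one of the few positive fold changes among the 9 genes, and Opalin had the largest spread between mice. Capitals mark matches to the letters CTGGNAC, searched as a MYRF motif, and ACAANG, searched as a SOX motif, on both strands. N stands for any base, so a match can differ from the site a factor prefers. The windows are chr2:58052815-58053114 (Ermn, minus strand), chr7:30914814-30915113 (Mag, minus strand), chr9:120149492-120149791 (Mobp, plus strand) and chr19:41077064-41077363 (Opalin, minus strand), each printed 5′ to 3′ along the gene.
Ermn: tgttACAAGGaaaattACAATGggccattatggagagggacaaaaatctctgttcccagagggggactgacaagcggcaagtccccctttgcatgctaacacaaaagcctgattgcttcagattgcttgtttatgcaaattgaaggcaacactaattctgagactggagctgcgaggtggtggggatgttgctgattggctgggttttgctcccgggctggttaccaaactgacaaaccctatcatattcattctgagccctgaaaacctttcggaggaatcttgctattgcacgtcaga
Mag: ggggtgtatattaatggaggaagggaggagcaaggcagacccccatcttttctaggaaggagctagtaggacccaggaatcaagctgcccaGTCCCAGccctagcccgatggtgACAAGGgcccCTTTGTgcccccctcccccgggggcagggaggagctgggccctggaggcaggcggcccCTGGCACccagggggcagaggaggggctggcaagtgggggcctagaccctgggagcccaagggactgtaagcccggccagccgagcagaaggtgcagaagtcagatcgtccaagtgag
Mobp: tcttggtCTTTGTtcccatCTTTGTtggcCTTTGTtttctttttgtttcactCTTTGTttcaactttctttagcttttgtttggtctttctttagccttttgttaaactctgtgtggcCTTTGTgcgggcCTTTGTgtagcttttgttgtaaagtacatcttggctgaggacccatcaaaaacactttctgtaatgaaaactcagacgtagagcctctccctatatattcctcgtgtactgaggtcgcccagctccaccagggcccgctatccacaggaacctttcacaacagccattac
Opalin: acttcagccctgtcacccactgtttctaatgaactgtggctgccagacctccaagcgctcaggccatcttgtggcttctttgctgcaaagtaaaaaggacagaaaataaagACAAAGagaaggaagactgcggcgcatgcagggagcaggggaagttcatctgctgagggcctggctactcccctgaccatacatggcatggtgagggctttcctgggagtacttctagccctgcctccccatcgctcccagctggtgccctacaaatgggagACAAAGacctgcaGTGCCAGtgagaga
The Ermn promoter held 2 matches to the SOX motif and none to the MYRF motif, whereas the Mag window shown held 2 of each. Of the other Mag windows, one overlaps it and holds the same matches, and the one at chr7:30914272-30914571 held 1 SOX match and no MYRF match. The Mobp promoter held 6 SOX matches on the minus strand, most of them in a repeated stretch. The Opalin promoter held 2 SOX matches and 1 MYRF match, and no match of one motif overlapped a match of the other. Of the 8 genes with a promoter, 4 had a MYRF match and 6 a SOX match in at least 1 window, with Mag counted once over its windows. Short motifs are common, as 19.3% of 32851 promoter windows of the same length held a MYRF match and 41.2% held a SOX match. These are shares of single windows and not of genes. A match describes the letters in these windows and does not show that a factor binds there.

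All 9 genes passed the filter on low counts, which kept 17144 genes. Library totals ran from 15763432 to 18573386 counts, and levels are given as CPM, counts scaled to a common library size by TMM. The groups were compared with edgeR's quasi-likelihood test, and p-values were adjusted over the genes tested (Benjamini-Hochberg). A gene was called at an adjusted p-value under 0.05, and called a DEG (differentially expressed gene) if its fold change was also at least 1.5 or at most 0.67. Replicates of both groups differed beyond counting noise. The test recovered 52 of 100 genes simulated with a fold change of 1.5 and 84 of 100 with a fold change of 2. Smaller differences could thus be missed with 2 mice per group. The simulation used the spread usual for genes of each level. The 9 genes varied more between replicates, with a median SD of 0.33 on the log2 scale against 0.12 for all genes tested. These rates therefore do not hold for the 9 genes, and larger differences could also be missed.

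On day 1 post-surgery, Ermn was the only 1 of the 9 genes that passed the test, and it was higher in PND mice. None of the 9 was lower by this test, none was lower at an unadjusted p-value under 0.05, and DESeq2 called 0 lower, with 1 at an unadjusted p-value under 0.05. Among all genes tested, 13.1% were called higher and 12.8% lower, and 6.75% were DEGs with a rise and 2.25% DEGs with a fall. The log2 fold change was negative for 6 of the 9 genes, with a median of -0.19 against 0.01 over all genes tested. The 9 genes together had summed levels of 5370 and 4726 CPM in the control mice and 5261 and 3482 CPM in the PND mice. The second PND mouse (PND 2) was thus lowest, and the first (PND 1) lay between the control mice. In bulk tissue, fewer oligodendrocytes and less RNA per oligodendrocyte cannot be told apart.

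**Figure D1:**
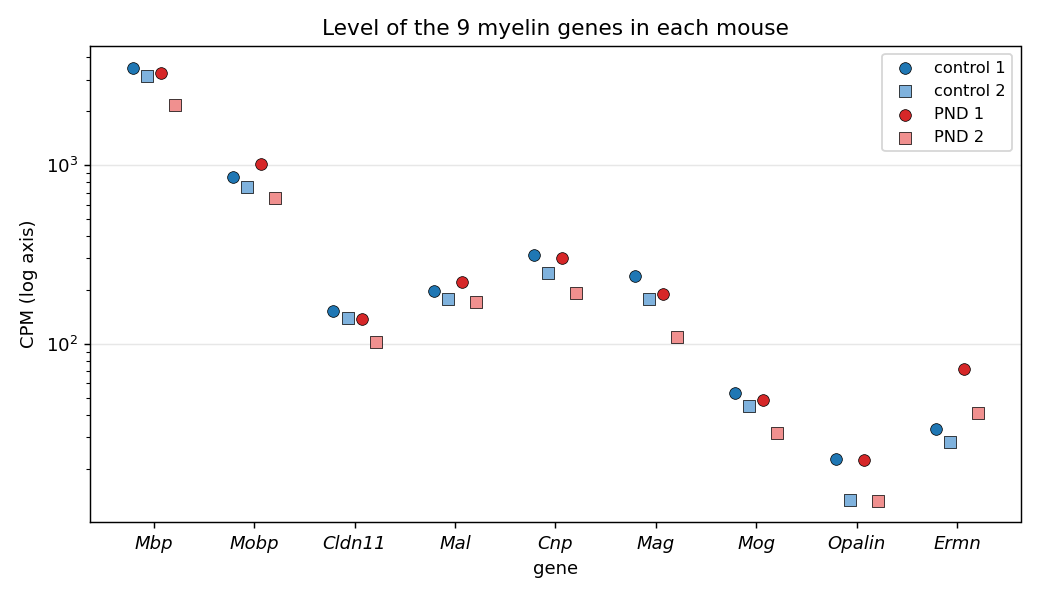
Level of each of the 9 myelin genes in CPM (log axis) in each mouse, with controls in blue, PND mice in red, circles for replicate 1 and squares for replicate 2. PND 2 was the lowest mouse for every gene but Ermn, for which both PND mice lay above the control mice.

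Mbp encodes myelin basic protein, which binds the cytoplasmic faces of compact myelin to each other, and it was by far the most abundant of the 9. It measured 3507 and 3140 CPM in the control mice and 3254 and 2168 CPM in the PND mice. PND 1 lay between the control mice and PND 2 below them, so the groups overlapped. The log2 fold change was -0.29 (SE 0.18, 95% interval -0.72 to 0.13, adjusted p = 0.27).

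Mobp encodes a second small basic protein of compact myelin. Its levels were 853 and 757 CPM in the control mice and 1016 and 651 CPM in the PND mice. The PND mice were the highest and the lowest of the 4, and the control mice lay between them. The log2 fold change was 0.05 (SE 0.19, 95% interval -0.41 to 0.51, adjusted p = 0.87).

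Cldn11 encodes claudin-11, the tight junction protein of central myelin. Levels of 152 and 139 CPM in the control mice stood against 138 and 103 CPM in the PND mice. The groups did not overlap, but PND 1 and the lower control mouse were nearly equal. Cldn11 had a log2 fold change of -0.28 (SE 0.13, 95% interval -0.60 to 0.05, adjusted p = 0.18). Mal, whose product sorts lipids and proteins to the myelin membrane, measured 197 and 178 CPM in the control mice and 221 and 171 CPM in the PND mice. Here the control mice lay between the PND mice, and the log2 fold change was 0.06 (SE 0.12, 95% interval -0.23 to 0.36, adjusted p = 0.74).

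Cnp encodes a cyclic nucleotide phosphodiesterase that keeps cytoplasmic channels open in myelin. It measured 313 and 248 CPM in the control mice and 300 and 193 CPM in the PND mice. One mouse of each group lay near 300 and the groups overlapped, with a log2 fold change of -0.19 (SE 0.21, 95% interval -0.68 to 0.31, adjusted p = 0.55). Its exons share 154 bases with Dnajc7 on the opposite strand, which had 1493 to 1588 counts in the 4 mice, and the use of strand in the counting is not given in the sources used here, so part of the Cnp counts could come from Dnajc7.

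Mag encodes the myelin-associated glycoprotein, an adhesion molecule of the innermost myelin membrane that faces the axon. Its levels were 239 and 177 CPM in the control mice and 189 and 109 CPM in the PND mice. PND 1 lay between the control mice, while PND 2 was clearly the lowest. Mag had the most negative log2 fold change of the 9 genes, -0.48, with a wide error (SE 0.26, 95% interval -1.10 to 0.13, adjusted p = 0.21).

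Mog encodes a glycoprotein of the outermost myelin lamella. Mog measured 52.9 and 44.6 CPM in the control mice and 48.3 and 31.6 CPM in the PND mice, again with PND 1 between the control mice. The log2 fold change was -0.29 (SE 0.20, 95% interval -0.76 to 0.18, adjusted p = 0.33).

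Opalin encodes a membrane glycoprotein of mature oligodendrocytes. It had 22.6 and 13.3 CPM in the control mice and 22.5 and 13.3 CPM in the PND mice. The same pair of levels occurred in each group, and the log2 fold change was -0.01 (SE 0.32, 95% interval -0.77 to 0.75, adjusted p = 0.99). The interval is wide, and a change of 1.5-fold in either direction lies within it.

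Ermn encodes ermin, a protein that binds the actin cytoskeleton in myelinating oligodendrocytes and appears late in their maturation. It measured 33.4 and 28.1 CPM in the control mice (mean 30.8 ± 3.80, SD, n = 2) and 72.0 and 41.1 CPM in the PND mice (mean 56.6 ± 21.9, SD, n = 2). Both PND mice were higher than both control mice, and PND 1 was far above the rest. Ermn rose 1.84-fold (log2 fold change 0.88, SE 0.25, 95% interval 0.28 to 1.48, adjusted p = 0.045). The call was lost without PND 1 (log2 fold change 0.41, adjusted p = 0.063), without control 2 (0.75, adjusted p = 0.12), with DESeq2 (0.86, adjusted p = 0.11) and without the filter on low counts (0.87, adjusted p = 0.13). It was also lost, and the log2 fold change was 0.10 (adjusted p = 0.87), with each library's trends with transcript length and GC content removed. Ermn and Cldn11 were the 2 genes of 9 whose groups did not overlap, and 65.5% of all genes tested had both PND mice beyond both control mice. Exons of Ermn share 237 bases with Galnt5 on the opposite strand, which had only 5 to 11 counts in the 4 mice.

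Without PND 1, Mbp, Mog, Mag, Mobp, Cnp and Cldn11 were called lower in PND mice, with log2 fold changes from -0.32 for Mobp to -0.95 for Mag and adjusted p-values from 0.0030 for Mbp to 0.032 for Mobp. In that comparison 11.6% of all genes were called lower. The remaining PND mouse was then assumed to vary like the control mice. Without PND 2, none of the 9 genes was called lower (7.54% of all genes were), and Mobp (log2 fold change 0.34, adjusted p = 0.027) and Ermn (1.23, adjusted p = 0.0018) were called higher, beside 8.88% of all genes. Which of the PND mice was kept thus decided how many of the 9 genes were called, and in which direction.

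**Figure D2:**
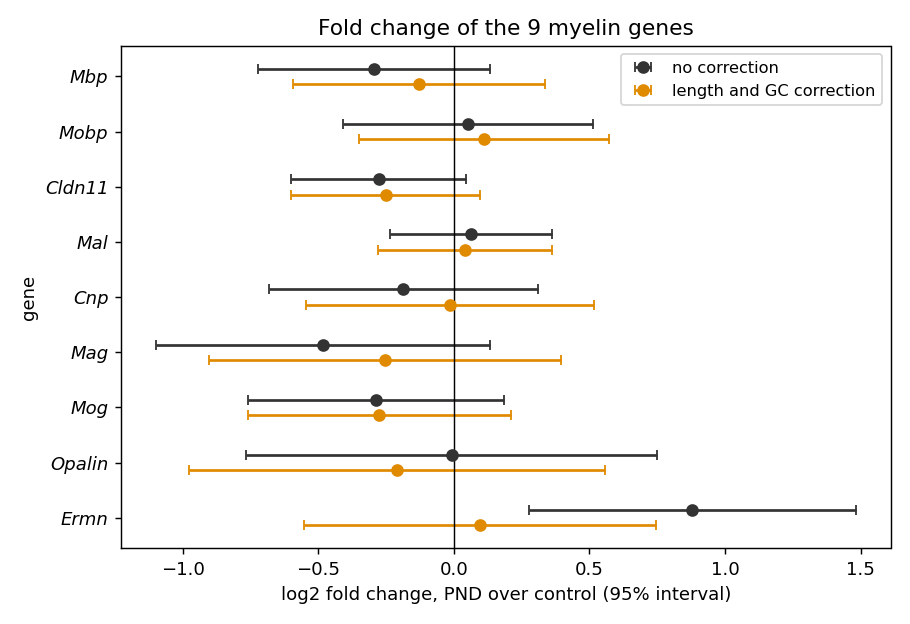
Log2 fold change of each of the 9 myelin genes, PND over control mice, with its 95% interval, as counted (black) and after removal of each library's trend with transcript length and GC content (orange). Without the correction, every interval but that of Ermn includes 0, and with it all 9 do.

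Over all genes tested, fold changes were higher for transcripts of low GC content, and the 9 genes are set against this trend. Ermn, with 38.0% GC, had the lowest of the 9 and lay at percentile 1.60 of all genes, and Mag, with 56.7%, had the highest. Among all 692 tested genes with 35 to 40% GC, the median log2 fold change was 0.76, against 0.88 for Ermn. In the bin of 45 to 50%, which held Mal (0.06) and Opalin (-0.01), the median was 0.12. In the bin of 50 to 55%, which held Mbp, Mog, Mobp, Cnp and Cldn11, the median was -0.13, and in that of 55 to 60% it was -0.29, against -0.48 for Mag. With each library's trend with transcript length and GC content removed, the log2 fold change of Ermn was 0.10 (SE 0.27, adjusted p = 0.87) and that of Mag was -0.25 (SE 0.27, adjusted p = 0.63). It was then -0.13 for Mbp, -0.02 for Cnp, -0.28 for Mog, -0.25 for Cldn11 and 0.04 for Mal. Opalin (-0.21) and Mobp (0.11) moved away from 0. After this correction none of the 9 genes was called by edgeR's test, none had an unadjusted p-value under 0.05, and 1.46% of all genes were called lower and 0.706% higher. What gave rise to the trend was not tested.

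**Figure D3:**
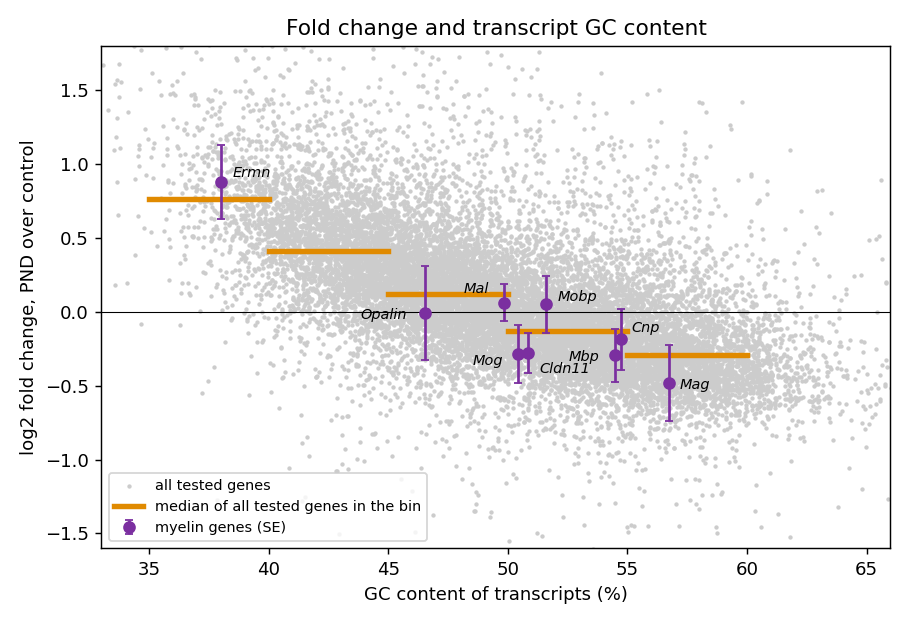
Log2 fold change of each tested gene, PND over control mice, against the GC content of its transcripts in percent, with the 9 myelin genes in purple (bars, SE), all tested genes in grey and the median of all tested genes in each bin of 5 percentage points from 35 to 60 as an orange line. The bin medians go from 0.76 to -0.29, Ermn and Mag lie near the medians at either end, and 164 genes lie outside the axes.

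Between mice of the same group, the 9 genes moved together. Replicate 1 was higher than replicate 2 for 9 of 9 genes in both groups, which held for 29.7% of all genes tested (53.7% in the control mice, 50.4% in the PND mice). The median log2 difference, replicate 2 minus replicate 1, was -0.24 for control and -0.63 for PND mice, against -0.02 and -0.00 over all genes. In the control mice it ran from -0.12 for Cldn11 to -0.76 for Opalin. In the PND mice it ran from -0.37 for Mal to -0.81 for Ermn. The median SD between replicates on the log2 scale was 0.33 for the 9 genes and 0.12 for all genes tested. Replicate numbers name the libraries only, and the 9 genes share each library, so they are not independent measurements of this spread.

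**Figure D4:**
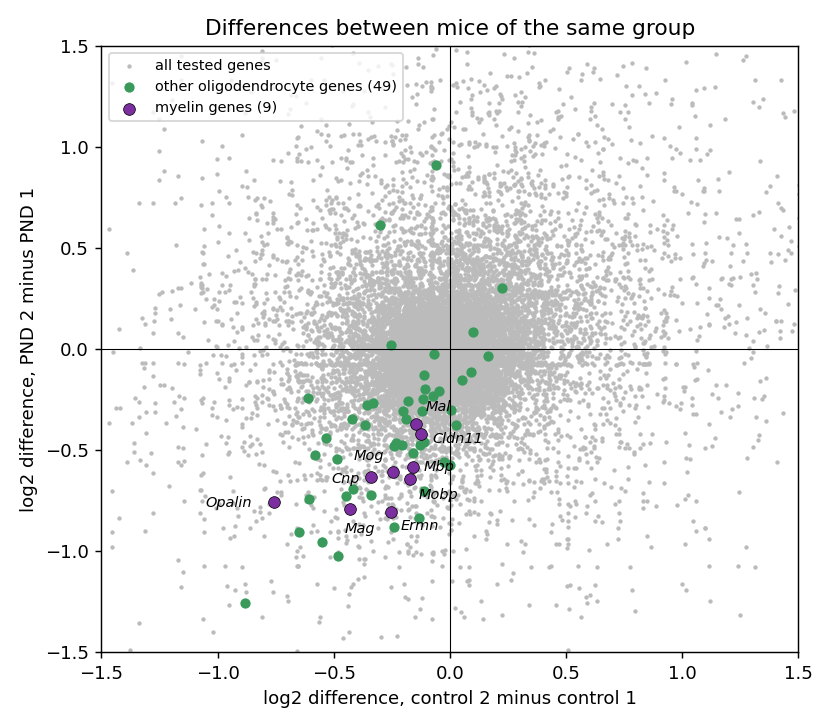
Log2 difference between the mice of one group, replicate 2 minus replicate 1, in the control mice (x axis) and the PND mice (y axis), for the 9 myelin genes (purple), 49 other oligodendrocyte genes (green) and all tested genes (grey). All 9 myelin genes lie to the lower left, where replicate 2 was below replicate 1 in both groups, and 406 genes, including Enpp2 and Klk6, lie outside the axes, which end at 1.5.

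Because the genes moved together within each group, each was also set against the mean log2 CPM of the others in the same mouse, leaving Ermn out of the others. This comparison was chosen after the values were seen and carries no test. The median SD between replicates was 0.11 on this scale, with a range of 0.03 for Cnp to 0.28 for Opalin. Relative to the others, Ermn was higher by 1.03 on the log2 scale in PND mice. It stood at -2.78 and -2.74 in the control animals and at -1.63 and -1.84 in the PND animals, with a wide gap between the groups. Relative to the others, the PND mice also lay above the control mice for Mal (0.29) and Mobp (0.25) and below them for Mag (-0.37), Mbp (-0.14) and Mog (-0.13). For Cnp (-0.01), Cldn11 (-0.10) and Opalin (0.22) the groups overlapped. The groups were thus apart for 6 of 9 genes, and for 32.0% of all tested genes set against the same myelin genes. These shares cannot be compared, because the shift shared by the myelin genes cancels for the 9 but is added to other genes. On the plain scale the groups were apart for 65.5% of all tested genes. Values taken relative to each other have to differ in both directions. They also carry the trend with GC content, in which Ermn (38.0% GC) and Mag (56.7% GC) lie at either end of the 9, and the fold change of Ermn on the plain scale went from 0.88 to 0.10 once the trends with transcript length and GC content were removed together.

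**Figure D5:**
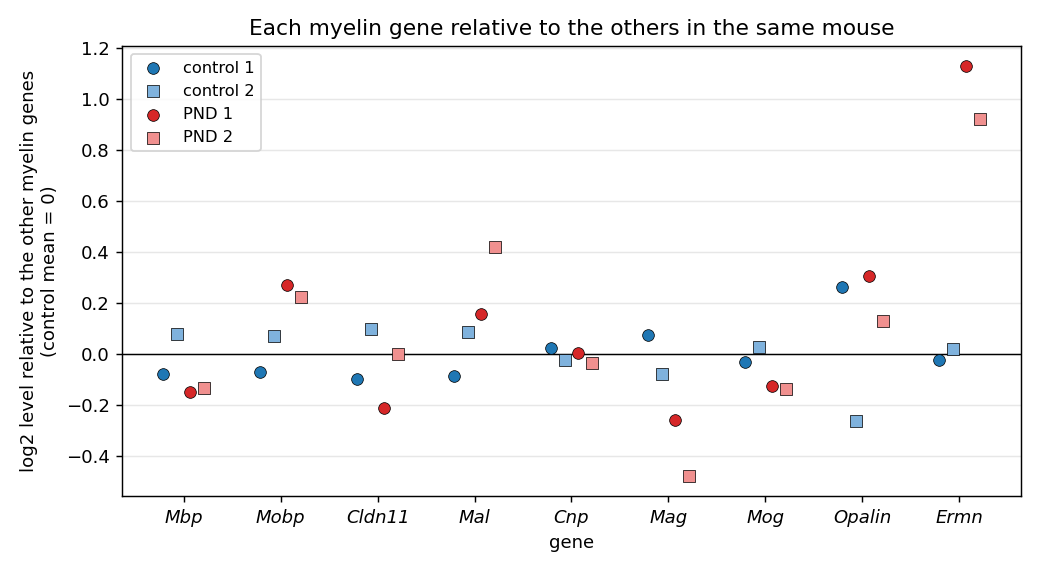
Log2 level of each myelin gene relative to the mean log2 CPM of the other myelin genes (Ermn left out of the others) in the same mouse, with the control mean set to 0; symbols are mice as named in the legend. Ermn stands about 1 unit above the control mice in both PND mice, and Mag lies lowest in both.

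Per length, as CPM per kb of exon sequence over all annotated exons, levels of the 9 genes spread from 356 ± 69.3 for Mbp to 6.09 ± 1.82 for Opalin (SD, n = 4 mice of both groups). Mobp followed Mbp with 120 ± 22.7 CPM per kb. Cnp (72.4 ± 15.1), Cldn11 (71.1 ± 11.2) and Mal (69.1 ± 8.06 CPM per kb) came next and did not differ beyond their spread, as each was above the next in only 2 of 4 mice. Mal was above Mag (43.9 ± 13.2 CPM per kb) in 4 of 4 mice. Mag, Mog (26.0 ± 5.36 CPM per kb) and Ermn (7.72 to 19.8 CPM per kb over the 4 mice) followed in this order within every mouse, although the ranges of neighbours overlapped. When lengths were taken as the median transcript length, Mal and Mag moved above Cldn11 and the rest of the order was the same, but the gap between Mbp and Mobp narrowed to 1673 against 1440 CPM per kb.

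By position on mm10, the 9 protein-coding genes lie on 8 chromosomes, with Ermn (58045113 to 58052864, minus strand) and Mal (127633226 to 127656695, minus strand) both on chromosome 2. Mag lies on chromosome 7 (30899176 to 30914873, minus strand), Mobp on chromosome 9 (120149707 to 120181484, plus strand) and Cldn11 on chromosome 3 (31149920 to 31164324, plus strand). Cnp lies on chromosome 11 (100574904 to 100591729, plus strand), Mog on chromosome 17 (37010743 to 37023398, minus strand), Opalin on chromosome 19 (41062474 to 41077113, minus strand) and Mbp on chromosome 18. For each of the 9 genes, no more than 0.117% of the 75 nt windows of its transcripts occurred in transcripts of another gene. For Mobp, 79 bases of exon are shared with Gm38642 on the same strand.

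Another 49 genes of myelin and the oligodendrocyte lineage, some of them also expressed by precursors, neurons or other glia, were listed by role, and 3 of these were called higher and 5 lower in PND mice (1 and 2 of them DEGs), against 13.1% and 12.8% of all genes. Their log2 fold change was negative for 34 of 49, with a median of -0.13, beside 8411 of 17144 genes tested. It was negative for 27 of the 49 with the length and GC correction, for 20 without PND 2 and for 35 without PND 1. Replicate 1 was above replicate 2 in both groups for 37 of the 49. The calls came from different roles, and no list held more than 3 of them. With the trend with transcript length and GC content removed, edgeR's test called 0 of the 49, with 5 at an unadjusted p-value under 0.05. Without the filter on low counts it called 1 of them, Olig2. Without PND 1, 22 of the 49 were called lower and 1 higher (11.6% and 11.3% of all genes), and without PND 2, 3 were called lower and 9 higher (7.54% and 8.88% of all genes).

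Of 14 genes of myelin membranes and junctions, 1 was called higher and 2 lower. Hapln2, a link protein of the matrix at the nodes of Ranvier, measured 66.9 and 65.8 CPM in the control mice and 48.7 and 33.1 CPM in the PND mice, and it fell by 0.70 on the log2 scale (SE 0.17, adjusted p = 0.027). Nfasc encodes neurofascin, which anchors the paranodal loops to the axon but is also made by neurons, and it fell by 0.48 on the log2 scale (SE 0.10, adjusted p = 0.017). Tspan2, a tetraspanin of oligodendrocytes, rose by 0.46 (SE 0.12, adjusted p = 0.035). Without control 2 the calls of Hapln2 (adjusted p = 0.050, just over the threshold) and Tspan2 (adjusted p = 0.12) were lost, and that of Tspan2 was also lost without PND 1 (adjusted p = 0.092). Hapln2 had a log2 fold change of -1.02 without PND 1 and of -0.44 without PND 2. With the length and GC trends removed none of the 3 was called, with log2 fold changes of -0.40 for Hapln2 (adjusted p = 0.23), -0.31 for Nfasc (adjusted p = 0.18) and 0.10 for Tspan2 (adjusted p = 0.68). With the replicate number added as a block, edgeR called Hapln2 (-0.42, adjusted p = 0.041) and Nfasc (-0.32, adjusted p = 0.021) lower, but not Tspan2.

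None of 7 enzymes of myelin lipids was called by edgeR, with 1 at an unadjusted p-value under 0.05, and DESeq2 called 1 higher. Cers2, a ceramide synthase, measured 73.6 and 70.1 CPM in the control mice and 70.4 and 69.2 CPM in the PND mice, a log2 fold change of -0.04 (SE 0.07, adjusted p = 0.70) that was slightly positive when libraries were scaled by their totals. Enpp2, which encodes autotaxin, had 166 and 1518 CPM in the control mice and 664 and 873 CPM in the PND mice. Autotaxin is also made by the choroid plexus, and Ttr, the leading choroid plexus transcript, had 90.9, 5078, 1914 and 3255 CPM in the same order of mice. The log2 fold change of Enpp2 was -0.13 with an SE of 0.82 (adjusted p = 0.93), and it was called lower without control 1 (-0.99, adjusted p = 0.0056) and higher without control 2 (2.21, adjusted p = 0.0030).

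Among 18 genes of oligodendrocyte cytoplasm and signalling, Apod was called higher and Ppp1r14a lower. Apod encodes apolipoprotein D, a secreted lipid carrier that other glia and perivascular cells also make. It measured 134 and 128 CPM in the control mice and 201 and 379 CPM in the PND mice, so that PND 2, the lowest mouse for most myelin genes, was here the highest. Apod rose by 1.15 on the log2 scale (SE 0.26, adjusted p = 0.023), and the call was lost without control 2 (adjusted p = 0.052) or without the filter on low counts (adjusted p = 0.078). The log2 fold change of Apod was 1.52 without PND 1 and 0.62 without PND 2, and both were called. Ppp1r14a, an inhibitor of myosin phosphatase, fell by 0.57 on the log2 scale (SE 0.15, adjusted p = 0.039), and its call was lost without control 1 (adjusted p = 0.077), control 2 (adjusted p = 0.11) or PND 2 (adjusted p = 0.14). The most abundant of the list were Tppp, a tubulin polymerization protein (log2 fold change -0.20, SE 0.07, adjusted p = 0.080), and Plekhb1 (-0.18, SE 0.15, adjusted p = 0.43). Tppp was called lower with DESeq2 (-0.22, adjusted p = 0.024). Without PND 1 the log2 fold change was -0.28 for Tppp and -0.45 for Plekhb1, and without PND 2 it was -0.14 and 0.045. With the length and GC trends removed, the log2 fold change was 1.11 for Apod (adjusted p = 0.075) and -0.26 for Ppp1r14a (adjusted p = 0.38).

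Of 10 regulators of the oligodendrocyte lineage, 1 was called higher and 2 lower. Olig2, the transcription factor that defines the lineage from its precursors onwards, had 41.0 and 42.6 CPM in the control mice and 27.0 and 24.2 CPM in the PND mice. The groups were well separated, and Olig2 fell by 0.71 on the log2 scale (SE 0.09, adjusted p = 0.0055). Olig1, its neighbouring paralog, fell by 0.43 on the log2 scale (SE 0.12, adjusted p = 0.049), a call lost without control 1 (adjusted p = 0.13) or PND 2 (adjusted p = 0.11), with scaling by library totals only (adjusted p = 0.063) and without the filter on low counts (adjusted p = 0.12). St18, a zinc finger transcription factor, rose by 0.50 (SE 0.11, adjusted p = 0.022), a call lost without control 2 (adjusted p = 0.086) or PND 1 (adjusted p = 0.077). Myrf, which drives the myelin genes, measured 109 and 101 CPM in the control mice and 98.4 and 60.5 CPM in the PND mice, with PND 2 well below the rest (log2 fold change -0.40, SE 0.21, adjusted p = 0.20). It was called lower without PND 1 (-0.81, adjusted p = 0.0020), and its log2 fold change was -0.09 without PND 2 (adjusted p = 0.57). The GC content was 58.5% for Olig2 and 61.1% for Olig1, and with the length and GC trends removed none of the 3 was called, with log2 fold changes of -0.44 for Olig2 (adjusted p = 0.074), -0.11 for Olig1 (adjusted p = 0.69) and 0.12 for St18 (adjusted p = 0.60). With the replicate number added as a block, edgeR called Olig2 lower (-0.44, adjusted p = 0.017), but not Olig1 or St18.

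Oligodendrocyte precursors do not yet make myelin. Their 8 markers had a smaller median spread between replicates than the myelin genes (SD 0.13 on the log2 scale). Replicate 1 was above replicate 2 in both groups for 2 of the 8, Gpr17 and Enpp6. The SD of Enpp6 was 0.70, above that of each of the 9 myelin genes (0.20 to 0.54). Summed levels of the 8 markers were 192 and 202 CPM in the control mice and 191 and 183 CPM in the PND mice. Of the 8, Lhfpl3, a membrane protein of precursors, rose by 1.16 on the log2 scale (SE 0.18, adjusted p = 0.0071). Cspg4, the proteoglycan NG2 of precursors and pericytes, fell by 0.44 (SE 0.10, adjusted p = 0.025), a call lost without control 2 (adjusted p = 0.087), PND 1 (adjusted p = 0.066) or the filter on low counts (adjusted p = 0.063). With the length and GC trends removed, neither Lhfpl3 (log2 fold change 0.49, adjusted p = 0.22) nor Cspg4 (-0.18, adjusted p = 0.32) was called. Pdgfra, the growth factor receptor of precursors, measured 52.9 and 64.3 CPM in the control mice and 57.1 and 60.6 CPM in the PND mice, with a log2 fold change near 0 whose sign depended on the scaling (0.01, SE 0.11, adjusted p = 0.98).

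The genes whose pattern over the 4 mice was most like the mean pattern of the 9 were sought among 10355 genes with at least 10 CPM, by the Euclidean distance between log2 CPM values centred on each gene's mean. The mean pattern was 0.19 and -0.10 in the control animals and 0.27 and -0.35 in the PND animals. Among the 5 nearest were Chn2 (distance 0.08), Slain1 (0.09), Smad7 (0.09) and Cfp (0.10). Chn2 had 19.4 and 16.4 CPM in the control mice and 19.7 and 13.2 CPM in the PND mice. Of the 50 nearest genes, 7 were on the list of other oligodendrocyte genes, which made up 0.406% of the genes ranked. With 4 mice, this likeness is a description only.

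Markers of other cells and regions were read in the same libraries. Neuron markers had summed levels of 11217 and 10884 CPM in the control mice and 9996 and 9695 CPM in the PND mice. Of the 8, 1 was called higher and 2 lower, beside 13.1% and 12.8% of all genes. The fall of the sum lay in the 2 called lower, Camk2a and Slc17a7. In the same order of mice, Camk2a had 5121, 5023, 4228 and 4224 CPM and Slc17a7 had 1708, 1669, 1303 and 1283 CPM. The log2 fold change was negative for 4 of the 8 neuron markers, with a median of -0.04. Astrocyte markers (4638 to 5005 CPM over the 4 mice, 3 of 8 higher and 2 lower) and microglia markers (266 to 286 CPM, 2 of 8 higher) varied less between mice than the myelin genes. Endothelial markers had 213 and 225 CPM in the control mice and 233 and 316 CPM in the PND mice, with 2 of 6 higher, and they were highest in PND 2. With the length and GC trends removed, edgeR called 1 neuron marker lower and 0 markers of astrocytes, microglia and endothelium (1.46% of all genes lower, 0.706% higher). With the replicate number added as a block, it called 3 neuron markers lower, and 3 astrocyte markers lower and 1 higher. It then also called 2 microglia markers and 1 endothelial marker higher (9.33% of all genes lower, 4.3% higher). The 6 choroid plexus markers had 128 and 5418 CPM in the control mice and 2041 and 3458 CPM in the PND mice. In both groups this sum was higher in the mouse in which the 9 myelin genes were lower. With all 4 mice, none of the 6 was called by edgeR or DESeq2, and none had an unadjusted p-value under 0.05. The count rested on the control mice, as edgeR called 4 of the 6 lower in PND mice without control 1 and 6 of 6 higher without control 2.

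Thalamus markers, read because the thalamus adjoins the hippocampus and is rich in myelin, had summed levels of 52.5 and 57.0 CPM in the control mice and 95.5 and 78.5 CPM in the PND mice. Of these 5 markers, 1 was called higher, Zic1, with 12.3 and 16.9 CPM in the control mice and 43.7 and 39.7 CPM in the PND mice. The other 4 markers summed to 51.8 and 38.8 CPM in the PND mice, and both control mice lay between these values. Among these 4, Tnnt1 (log2 fold change 0.71, adjusted p = 0.19) and Lef1 (0.82, adjusted p = 0.057) were higher in both PND mice than in either control mouse without passing the test, and over the 5 markers the median log2 fold change was 0.71. Schwann cells, the myelin cells of peripheral nerves, also express Mbp, Mag and Mal. Their 4 markers in the table summed to 3.39 to 4.76 CPM, and none of the 3 tested passed edgeR's test or an unadjusted p-value under 0.05. Whether tissue other than the hippocampus took part in the differences between mice was not tested.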

How the data were processed

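Hippocampal RNA of 2 control and 2 PND mice was compared. Per the paper's methods, poly(A) RNA was sequenced as 150 nt paired-end reads, which the authors filtered and mapped to mm10 with HISAT. The authors deposited, for each of 29300 genes and each mouse, a raw count of reads without normalization. The submitters' processing notes also name HISAT2 2.1.0, Bowtie2 2.2.3, TopHat2 and HTSeq 0.6.0, without their roles. The use of strand is not given in the sources used here. Columns with the authors' own comparison (scaled means, fold changes, p-values and a mark of significance) were not used.

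Genes were kept with filterByExpr (minimum count 10), scaled by TMM (factors 0.982 to 1.02) and tested in R 4.3.3 with edgeR 4.0.16 (glmQLFit, glmQLFTest, condition only) and Benjamini-Hochberg adjustment. DESeq2 1.42.0 was an alternative. Standard errors were derived from the F statistics, and log2 CPM used a prior count of 2. Trends with transcript length and GC content (GENCODE M21, which held 29238 of the identifiers) were fitted with mgcv 1.9.3 (basis size 8) as offsets. The procedure was tested on simulated counts over 16806 genes with 200 changed, and it called 8 unchanged genes.

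The 9 genes and all lists were chosen with earlier results of these data known. Of each further list, the text names called genes (at most the 4 with the largest change) and the 2 most abundant, plus the 5 genes nearest in pattern. Zic1, Tnnt1, Lef1, Ttr, Camk2a, Slc17a7, Gpr17 and Enpp6 were named after their values were seen. Some genes that this rule selects are not reported here. Alternatives were other scalings, no filter, DESeq2, the replicate number as a block, the length and GC correction, both together, and leaving out each mouse. Symbols of 24 genes that had turned into dates were looked up again by identifier.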

Additional observations from a re-analysis of the deposited data

How the results depend on the processing

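With 2 mice per group, calls depended on single mice and on the processing, and where a group was left with 1 mouse, that mouse was assumed to vary like the other group. The count of the 9 genes called lower was 0, and 0 to 6 with each mouse left out in turn. The count called higher was 1, and 0 to 2 with a mouse left out. It was 0 without the filter, with DESeq2, with the length and GC correction and with that correction and the block. The number of DEGs among the 9 was 1, 0 in the same alternatives, and 0 to 3 with a mouse left out. Of the 49 other oligodendrocyte genes, 8 were called, against 1 without the filter, 0 with the length and GC correction, and 6 to 23 with a mouse left out. The median log2 fold change of the 9 genes ran from -0.52 to 0.10 with a mouse left out and from -0.21 to -0.13 in the other alternatives, so that it was positive without PND 2. The cause of these changes was not tested. Mean summed levels of the 9 genes were 5048 CPM in control and 4371 CPM in PND mice, with a range of 4726 to 5370 and of 3482 to 5261 CPM when a mouse was left out.

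The labels give both groups the numbers 1 and 2, but nothing ties mice of the same number together, and the pairing rests on 2 pairs only. Deviations from the group means correlated at 0.22 between same-numbered mice over the 17144 genes tested. With the replicate number as a block, 3 of the 9 genes were called lower (Mbp, Mag and Cldn11), 1 was called higher (Ermn), and 23 of the 49 others were called, with 15.3% of all genes called lower and 15.5% higher. With the block and the length and GC correction, 1 of the 9 was called lower, against 9.33% of all genes, and 8 of the 49 others were called, 7 lower and 1 higher. Tppp was among the others called lower, with adjusted p-values of 0.025 (block) and 0.0061 (block and correction, edgeR). With the block and correction, Olig2, Nfasc and Hapln2 were also called lower, and Apod was called higher (log2 fold change 1.04, adjusted p = 0.0097). With the block alone, Myrf was called lower (-0.44, adjusted p = 0.046).

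Directions turned for small differences. With library totals only, the log2 fold change was 0.039 for Opalin, 0.0054 for Cers2 and 0.0067 for Slain1. With the length and GC correction it was 0.039 for Cers2, -0.050 for Pdgfra, 0.025 for Slain1, 0.20 for Smad7 and 0.12 for Cfp, and with the block added 0.039, -0.045, 0.012, 0.19 and 0.11. Enpp2 was at 0.59 with the block and 0.33 with the block and correction. Pdgfra was at -0.0043 with DESeq2 size factors, -0.0056 without the filter and -0.016 with DESeq2. With a mouse left out, ranges that crossed 0 were -0.32 to 0.34 for Mobp, -0.55 to 0.10 for Cnp, -0.15 to 0.24 for Mal, -0.45 to 0.41 for Opalin, -0.99 to 2.21 for Enpp2, -0.45 to 0.045 for Plekhb1, -0.13 to 0.15 for Pdgfra, -0.46 to 0.15 for Chn2, -0.34 to 0.21 for Slain1, -0.39 to 0.18 for Smad7 and -0.36 to 0.16 for Cfp.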
